A study of Mus musculus with 6 samples.

Results

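The interferon response and MHC genes were taken by name: a row of the 6 gene tables belonged to them where its symbol began with H2-, Ifit, Ifih, Irf, Oas, Gbp, Ifi followed by a digit or Stat followed by a digit, or was B2m, Bst2, Tap1, Tap2, Tapbp, Cd74 or Isg15. This gave 53 genes of 15639 rows. By role they were 8 MHC class I genes, 3 peptide-loading genes, 5 class II genes, 1 RNA sensor, 6 interferon regulatory factors (IRFs), 5 STATs, 9 Ifit and Ifitm genes, 5 guanylate-binding proteins and 7 other interferon-induced genes, and 4 genes matched the name rule without such a role. The count of rows that began with Oas was 0. Hippocampus was taken at 6 months of age from APP/PS1 mice, which carry the APP695swe and PS1-dE9 mutations, and from wild-type (WT) control mice, with 3 libraries of total RNA per label. The labels give no promoter for the transgenes, no strain, no sex and no batch, and do not say whether a replicate is an animal of its own, so a p-value here reflects how far these libraries spread, and that spread may be technical.

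The targeted gene went against 2 labels. App, the gene whose mutant form the transgene carries, had 153.1, 71.0 and 166.2 FPKM, a read level per transcript length and library size, in replicates 1 to 3 labelled APP/PS1, against 69.8, 68.5 and 145.6 FPKM in those labelled WT replicates 1 to 3. Prnp, which encodes the prion protein, divided them likewise, with 471.6, 198.6 and 463.8 FPKM against 188.1, 181.5 and 457.2 FPKM. The library labelled APP/PS1 replicate 2 therefore stood with the low ones and the library labelled WT replicate 3 with the high ones, and an exact two-sided permutation test gave p = 0.2 for each gene, where 0.1 is the smallest that 3 against 3 allows. Libraries are named by their labels throughout, and results are also given for the 4 libraries left when these 2 are set aside. FPKM summed to 182355 to 185217 per library and the depth behind the values is unknown.

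Interferons are secreted when sensors such as MDA5 (Ifih1) or cGAS meet viral or misplaced nucleic acid. Type I interferon and interferon gamma act through receptors, JAK kinases and STAT proteins, and a factor that includes STAT2 and IRF9 binds the interferon-stimulated response element (ISRE) in promoters of genes such as Ifit3 and Isg15. MHC class I genes show peptides from inside the cell to CD8 T cells, class II genes show peptides from engulfed material to CD4 T cells, and both are interferon targets. In brain, microglia around amyloid plaques are known to take up parts of this program.

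Most of these genes were low in hippocampus. Their mean over the 6 libraries was at least 10 FPKM for 5 genes (B2m, Irf2bp2, Irf2bpl, Irf2bp1 and Ifi27) and under 2 FPKM for 28. A filter of at least 1 FPKM in at least 3 libraries kept 40 of the 53, and the 13 others lay between 0.179 and 1.58 FPKM in every library. H2-T24 passed only through the libraries labelled WT, all of them above 1 FPKM while the libraries labelled APP/PS1 were below it. In bulk tissue, fewer cells of a type and less RNA per cell cannot be told apart.

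**Figure D1:**
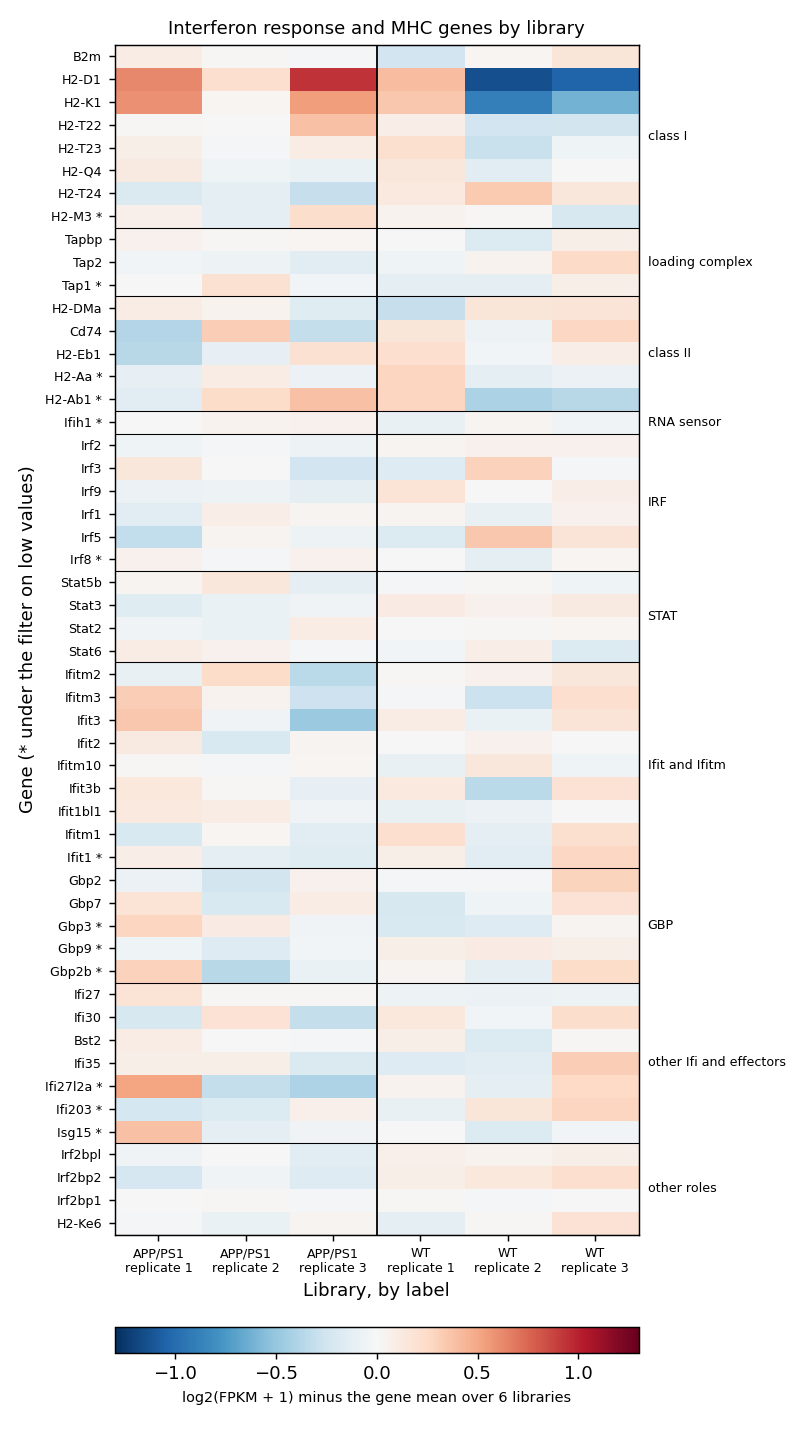
Each row is 1 of the reported genes and each column 1 library, APP/PS1 to the left of WT, and colour gives log2(FPKM + 1) minus the gene's mean over the 6 libraries. H2-D1 and H2-K1 show the darkest cells, low in the libraries labelled WT replicates 2 and 3 and not in the library labelled WT replicate 1.

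Between the labels, 0 of the 40 tested genes passed an adjusted p of 0.05 in limma in either direction, where of 13700 genes 1 had passed as higher (0.0073%) and 2 as lower (0.0146%). At an unadjusted p under 0.05 H2-D1 was the 1 gene with a positive fold change, 1 of 40 (2.5%) beside 2.85% of all genes tested. Irf2bp2, H2-T24 and Stat3 were the 3 with a negative one, 3 of 40 (7.5%) beside 3.83%. Of these, Irf2bp2 met the name rule without an interferon or MHC role, and H2-T24 passed the filter only through its WT values. The median log2 fold change, on the log2(FPKM + 1) scale that understates low genes, was -0.02 over the 40 and -0.00089 over all genes tested, with 17 positive (42.5%, all genes 49.6%) and 23 negative (57.5%, all genes 50.4%). In the 4 libraries whose App and Prnp followed their labels, 2 per label, 0 of 34 tested genes passed the adjusted threshold, where of 13345 genes 9 passed as higher (0.0674%) and 14 as lower (0.105%), and the median was 0.01. There, 0 of 34 had a positive and 3 of 34 (8.82%; Cd74, Ifi30 and Irf2bp2) a negative fold change at an unadjusted p under 0.05, beside 4.23% and 4.9% of all genes.

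**Figure D2:**
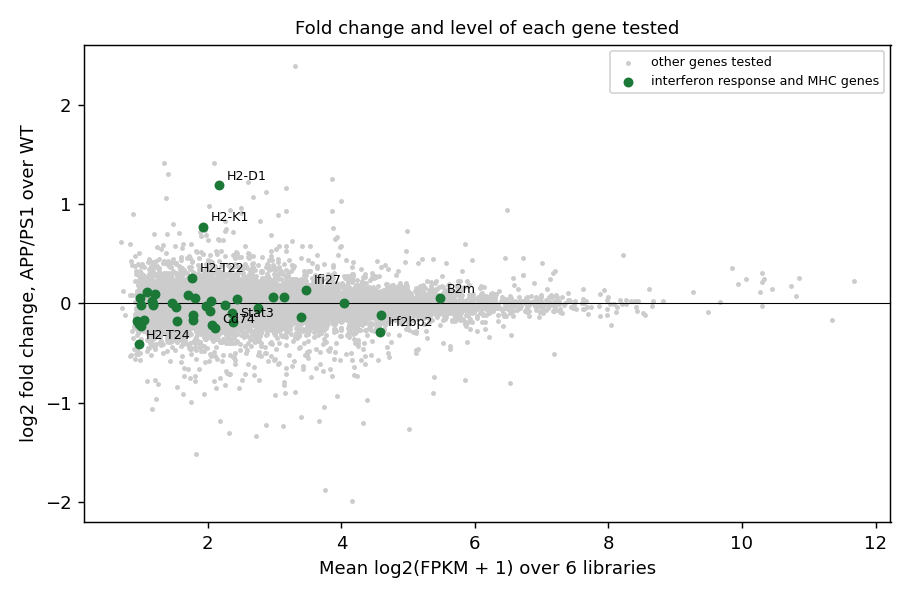
Each point is 1 tested gene, with its mean log2(FPKM + 1) over the 6 libraries on the horizontal axis and its log2 fold change (APP/PS1 over WT) on the vertical axis; green points are the interferon response and MHC genes and grey points all others. Among the green points H2-D1 at 1.19 and H2-K1 at 0.77 lie highest and H2-T24 at -0.41 lowest, and grey points of like level reach as far.

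The class I genes held the widest spread. H2-D1, the heavy chain of the classical molecule D, had 5.94, 4.24 and 7.68 FPKM in replicates 1 to 3 labelled APP/PS1, against 4.96, 1.04 and 1.20 FPKM in those labelled WT replicates 1 to 3. H2-K1, the heavy chain of the other classical molecule K, had 4.77, 2.88 and 4.55 FPKM against 3.85, 1.06 and 1.49 FPKM. In both genes the libraries labelled WT replicates 2 and 3 were the lowest, while the library labelled WT replicate 1 lay among those labelled APP/PS1, so the labels overlapped. The mean of H2-D1 was 5.95 ± 1.72 FPKM in APP/PS1 and 2.40 ± 2.22 FPKM in WT (SD, n = 3 each), and its log2 fold change was 1.19 (SE 0.45, limma adjusted p = 0.737). That of H2-K1 was 0.77 (SE 0.35, adjusted p = 0.785). In the 4 libraries they were 1.16 (adjusted p = 0.65) and 0.84 (adjusted p = 0.664). Without the library labelled WT replicate 1 the values were 1.69 (adjusted p = 0.13) and 1.14 (adjusted p = 0.252), and over all alternatives the adjusted p ran from 0.13 to 1.00 for H2-D1 and from 0.252 to 1.00 for H2-K1. H2-K1 and H2-D1 are closely similar to each other and to further class I genes, so reads may have been split between them by the authors' counting.

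The non-classical class I genes beside them followed in part. H2-T22, a ligand of some gamma delta T cells, had 2.43, 2.38 and 3.44 FPKM in the libraries labelled APP/PS1, against 2.62, 1.87 and 1.89 FPKM in those labelled WT, with a log2 fold change of 0.26 that was 0.13 without the library labelled APP/PS1 replicate 3. H2-T23, which encodes the Qa-1 heavy chain that is read by NKG2 receptors, had 1.43, 1.26 and 1.45 FPKM against 1.66, 0.877 and 1.21 FPKM. Both were lowest in the libraries labelled WT replicates 2 and 3, by a smaller distance than H2-D1. For H2-T23 there was hardly any distance, with 1.21 FPKM in WT replicate 3 and 1.26 FPKM in APP/PS1 replicate 2. H2-T24 went the other way, with 0.707, 0.792 and 0.582 FPKM against 1.13, 1.47 and 1.16 FPKM. Its libraries did not overlap between the labels, and its log2 fold change was -0.41 (SE 0.10, adjusted p = 0.531). H2-Q4 had 1.18, 0.933 and 0.885 FPKM against 1.23, 0.826 and 1.01 FPKM and overlapped, as did H2-M3, which was under the filter. B2m, the light chain that every class I heavy chain needs, was the highest of all 53 genes at 46.4, 43.8 and 42.6 FPKM against 36.3, 44.1 and 48.6 FPKM. Its lowest and its highest library were both labelled WT, and it did not share the pattern of H2-D1.

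**Figure D3:**
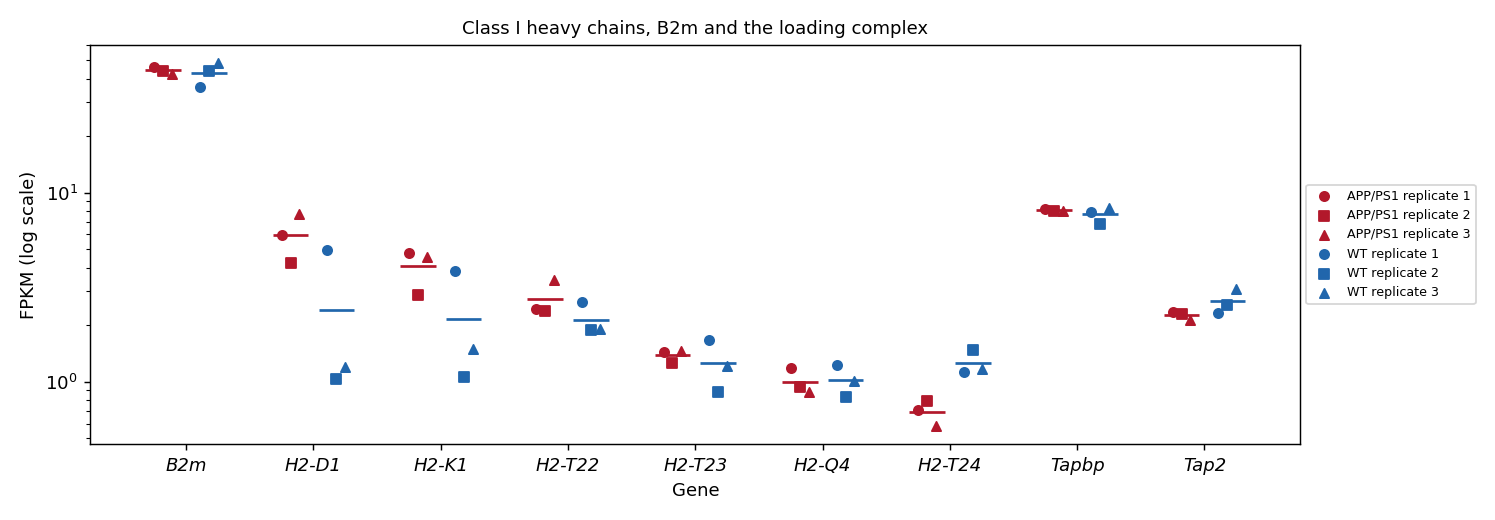
FPKM of class I and peptide-loading genes is plotted per library on a log axis, APP/PS1 left of WT, with a line at the mean of each label and 1 marker shape per replicate number. The points of H2-D1 and H2-K1 labelled WT split into 1 library near the APP/PS1 values (4.96 and 3.85 FPKM) and 2 between 1.04 and 1.49 FPKM.

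The order of libraries was read from H2-D1 and H2-K1 after their values were seen, so the counts in the next sentence leave these genes out. The libraries labelled WT replicates 2 and 3 were the 2 lowest for 2 of the 5 other tested class I genes (H2-T22 and H2-T23) and for 3 of the 38 other tested genes in all, Ifi27 being the remaining one, beside 6.58% of all genes tested. The counts are a description with no test. The ranks and counts by distance that follow include H2-D1 and H2-K1, so the place of these genes there is no support for the order. By the distance from the second to the third lowest library on the log2(FPKM + 1) scale, H2-D1 came 1st of the 1033 rows with this pair lowest, at 1.25, and H2-K1 13th, at 0.64. H2-T22 stood at 0.23, and H2-T23 came only 612th, at 0.03. Such a distance above 0.5 occurred in 19 genes for this pair of libraries, 2 of them MHC genes, H2-D1 and H2-K1 themselves. This pair ranked 2nd of the 15 pairs by that number, the pair of APP/PS1 replicates 1 and 3 having 33. Of the 15 genes with a known chromosome, 3 lay on chromosome 17 with the MHC (H2-D1, H2-K1 and Rps18) and the 15 covered 9 chromosomes. They included Zfp664, Rnd2, Zfx, Ptma and Fcrls, a microglial marker with 5.74, 4.36 and 4.10 FPKM in the libraries labelled APP/PS1 against 3.28, 0.954 and 1.90 FPKM in those labelled WT. The pattern was thus shared with genes outside the MHC, and its source was not tested. Fcrls is 1 of 12 microglial markers tested, of which 6 had a positive and 6 a negative fold change. Among the negative ones, Aif1 was wholly lower, with 1.56, 1.80 and 1.61 FPKM in APP/PS1 against 2.22, 2.07 and 2.43 FPKM in WT.

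Along chromosome 17 the neighbours outside the 53 genes had the libraries labelled WT replicates 2 and 3 as the 2 lowest about as often as all genes. Between H2-K1 and H2-M3 in the RefSeq gene order, this held for 5 of 62 such tested genes (8.06%, all genes tested 6.58%). It held for 2 of the 7 tested MHC genes there that are left when H2-D1 and H2-K1 are set aside. Rps18, a ribosomal protein gene 2 places from H2-K1 among the genes of the tables, had 8.82, 8.88 and 13.6 FPKM against 9.07, 4.40 and 3.13 FPKM and shared the pattern. Ddx39b, an RNA helicase gene next to H2-D1, had 20.8, 22.4 and 22.9 FPKM against 25.1, 23.1 and 23.97 FPKM and did not.

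The promoters of H2-D1 and H2-K1 are shown because these genes share the widest split between libraries. Both are from RefSeq on GRCm38.p6, 5′ to 3′ on the strand of the gene, and capitals mark the NF-κB motif GGGGATTCC of the class I enhancer and, after it, the shortened ISRE GAANNGAAA read on the other strand.
H2-D1, chr17:35262844-35263143, plus strand: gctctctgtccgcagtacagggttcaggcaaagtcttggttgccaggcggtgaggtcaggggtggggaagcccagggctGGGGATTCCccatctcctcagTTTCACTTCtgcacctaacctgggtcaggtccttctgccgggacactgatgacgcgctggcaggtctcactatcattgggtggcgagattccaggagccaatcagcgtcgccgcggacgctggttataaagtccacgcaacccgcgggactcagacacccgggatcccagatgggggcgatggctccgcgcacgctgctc
H2-K1, chr17:34000298-34000597, minus strand: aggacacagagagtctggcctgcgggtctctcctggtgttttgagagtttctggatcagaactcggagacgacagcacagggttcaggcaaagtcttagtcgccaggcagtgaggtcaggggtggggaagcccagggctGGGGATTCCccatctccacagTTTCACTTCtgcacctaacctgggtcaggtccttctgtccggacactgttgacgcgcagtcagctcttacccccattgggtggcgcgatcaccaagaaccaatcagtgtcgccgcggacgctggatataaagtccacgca
Shifted by 60 bases, the pair matched at 176 of 240 positions (73.3%). The motif GGGGATTCC, searched on both strands, was found in 2 of the 45 genes with a promoter in the table (4.44%), these 2, and in 80 of 27025 genes in all (0.296%). This motif was chosen as one of the class I enhancer, so its presence in class I genes is a description and no evidence of enrichment. The shortened ISRE GAANNGAAA was found in 11 of 45 (24.4%) and in 8.68% of all genes; 4 of the 7 class I genes with a promoter held it. A RefSeq window is 300 bases, from 250 before to 50 after the start, and a match of letters says nothing of binding. The submitters' processing notes list the build mm9, so these coordinates apply to RefSeq and not to the deposited tables.

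The peptide-loading genes differed in level and spread. Tapbp, tapasin, which holds class I molecules at the peptide transporter, had 8.22, 7.98 and 8.01 FPKM in the libraries labelled APP/PS1, against 7.92, 6.82 and 8.33 FPKM in those labelled WT, a log2 fold change of 0.07 that turned to -0.01 without the library labelled WT replicate 2. Tap2, a chain of the transporter, had 2.35, 2.27 and 2.12 FPKM against 2.32, 2.55 and 3.09 FPKM, a log2 fold change of -0.16 that was -0.08 without the library labelled WT replicate 3 and -0.09 in the 4 libraries. Tap1, its partner chain, was under the filter at 0.457, 0.665 and 0.424 FPKM against 0.334, 0.342 and 0.536 FPKM. All of them overlapped between the labels.

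Among the class II genes, 0 of the 3 tested passed the adjusted threshold and all 3 fold changes were negative (all genes 50.4%). Cd74, the invariant chain, had 2.29, 4.35 and 2.46 FPKM in the libraries labelled APP/PS1, against 3.80, 3.11 and 4.18 FPKM in those labelled WT (log2 fold change -0.25, SE 0.19, adjusted p = 0.884). Ifi30, the lysosomal thiol reductase GILT that prepares antigens for class II, had its low libraries in common with Cd74, with 2.62, 3.73 and 2.36 FPKM against 3.59, 3.05 and 3.88 FPKM (log2 fold change -0.22, SE 0.14, adjusted p = 0.856). The libraries labelled APP/PS1 replicates 1 and 3 were the 2 lowest for both genes, and the library labelled APP/PS1 replicate 2, which is low in App, was among the highest. This order was read from these values, and its share over all genes was not counted. By the number of genes with a distance above 0.5 over the 2 lowest libraries, this pair came first of the 15 pairs, with 33. In the 4 libraries the fold changes were -0.39 for Cd74 (adjusted p = 0.477) and -0.31 for Ifi30 (adjusted p = 0.522). With 1 library left out, Cd74 ran from -0.47 without APP/PS1 replicate 2 to -0.12 without APP/PS1 replicate 1, and Ifi30 from -0.37 without APP/PS1 replicate 2 to -0.12 without APP/PS1 replicate 3. H2-DMa, which helps load peptides onto class II, had 4.13, 3.95 and 3.30 FPKM against 2.89, 4.35 and 4.41 FPKM and overlapped. Its log2 fold change was only -0.02 (SE 0.14, limma adjusted p = 0.991), and it was 0.04 in the 4 libraries.

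The chains of the class II molecules themselves were near 1 FPKM. H2-Eb1, a beta chain, had 0.491, 0.776 and 1.20 FPKM in the libraries labelled APP/PS1, against 1.23, 0.868 and 1.03 FPKM in those labelled WT. H2-Ab1, the other beta chain, was under the filter with 0.424, 0.841 and 1.03 FPKM against 0.903, 0.179 and 0.222 FPKM, so it too was lowest in the libraries labelled WT replicates 2 and 3. H2-Aa, its alpha chain partner, was also under the filter, with 0.753, 1.02 and 0.784 FPKM against 1.29, 0.731 and 0.791 FPKM, and did not share the pattern. Beside them, the summed level of the 2 border macrophage markers that had a row of 6 (Mrc1 and F13a1) was 1.15 to 1.41 FPKM in APP/PS1 and 1.42 to 2.01 FPKM in WT. The part of such cells in the class II values was not tested.

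The RNA sensor Ifih1, which encodes MDA5, was under the filter, with 0.751, 0.804 and 0.807 FPKM in the libraries labelled APP/PS1 against 0.626, 0.779 and 0.691 FPKM in those labelled WT. Among the transcription factors, Irf2, Irf9 and Stat3 were lower in every library labelled APP/PS1, and none passed the adjusted threshold. Over all roles, the 3 libraries labelled APP/PS1 lay wholly below the 3 labelled WT for 6 of 40 tested genes (15%, all genes 6.51%) and wholly above them for 1 of 40 (2.5%, all genes 5.38%). The 6 were Irf2, Irf9, Stat3, H2-T24, Irf2bp2 and Irf2bpl, and the 1 was Ifi27. Irf2bp2 and Irf2bpl met the name rule without an interferon or MHC role, so the 15% does not stand for interferon and MHC genes alone. H2-T24 passed the filter through its WT values alone, and Gbp9, under the filter, was also wholly below.

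**Figure D4:**
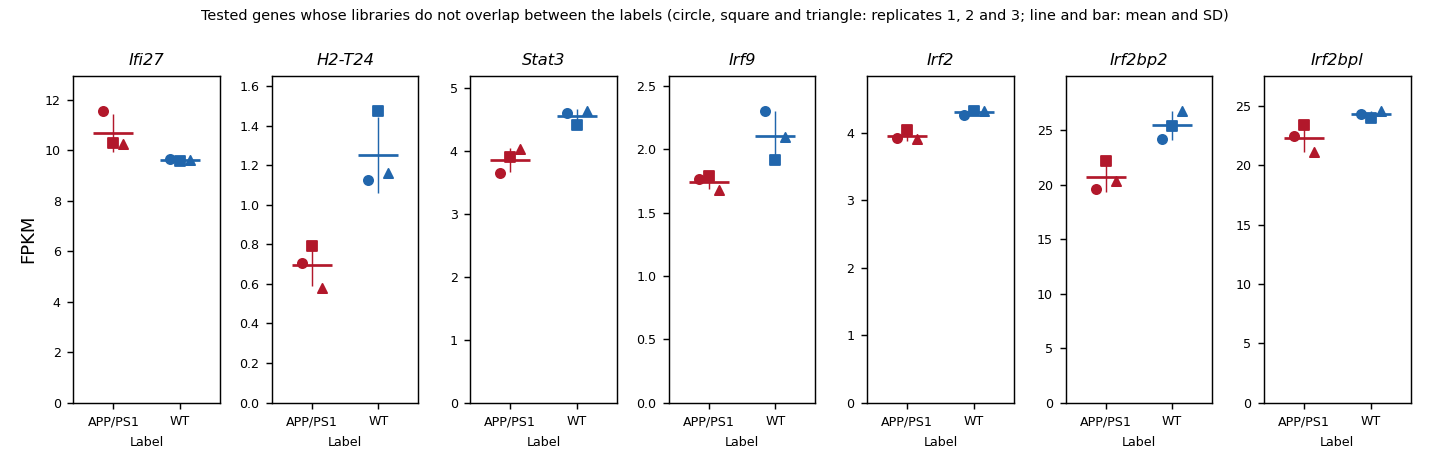
FPKM per library is plotted for the 7 tested genes whose libraries did not overlap between the labels, APP/PS1 left of WT, each on an axis of its own from 0, with the mean and SD. Apart from H2-T24 the separation is small beside the level, as in Irf2 with 3.90 to 4.04 FPKM in APP/PS1 and 4.26 to 4.33 FPKM in WT.

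Stat3, which carries signals of the interleukin-6 family, had 3.65, 3.91 and 4.03 FPKM in the libraries labelled APP/PS1, against 4.61, 4.42 and 4.64 FPKM in those labelled WT (log2 fold change -0.19, SE 0.06, limma adjusted p = 0.665). Irf9, the DNA-binding part of the ISRE factor, had 1.76, 1.79 and 1.68 FPKM against 2.30, 1.91 and 2.10 FPKM (log2 fold change -0.18, SE 0.08, adjusted p = 0.755). Irf2, a repressor of interferon target genes, had 3.92, 4.04 and 3.90 FPKM against 4.26, 4.32 and 4.33 FPKM (log2 fold change -0.10, SE 0.06, adjusted p = 0.84). These separations were a small share of each gene's level. In the 4 libraries the fold changes were -0.19 for Stat3, -0.19 for Irf9 and -0.11 for Irf2. Stat2, which binds Irf9 in that factor, did not separate the labels, with 2.81, 2.73 and 3.21 FPKM against 2.95, 2.99 and 3.01 FPKM.

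The remaining factors overlapped as well. Irf3, which is activated below the sensors, had 3.53, 3.06 and 2.43 FPKM in the libraries labelled APP/PS1 against 2.62, 4.01 and 3.04 FPKM in those labelled WT. Irf5, a factor of myeloid cells, had 0.602, 1.05 and 0.913 FPKM against 0.770, 1.55 and 1.24 FPKM, and Irf8, needed for microglia and under the filter, lay between 0.527 and 0.716 FPKM in all 6 libraries. Irf1, a factor of the interferon gamma response, had 1.08, 1.42 and 1.33 FPKM against 1.34, 1.13 and 1.37 FPKM. Among the 5 IRFs tested all fold changes were negative with a median of -0.10, and among the 5 STATs 3 were positive with a median of 0.03. Stat5b, a STAT of growth hormone and cytokine signalling, had 4.53, 4.98 and 3.97 FPKM against 4.33, 4.45 and 4.21 FPKM, and Stat6, that of interleukin-4, had 2.48, 2.39 and 2.20 FPKM against 2.18, 2.45 and 1.88 FPKM.

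A few genes met the name rule only. Irf2bp2, a corepressor that binds IRF2, had 19.5, 22.1 and 20.3 FPKM in the libraries labelled APP/PS1, against 24.2, 25.3 and 26.8 FPKM in those labelled WT (log2 fold change -0.29, SE 0.06, limma adjusted p = 0.485), the smallest adjusted p of the 40 genes. Its fold change was -0.30 in the 4 libraries (adjusted p = 0.322). Irf2bpl, a related protein, had 22.4, 23.4 and 21.1 FPKM in the libraries labelled APP/PS1, against 24.3, 23.97 and 24.6 FPKM in those labelled WT (log2 fold change -0.12), and neither gene overlapped between the labels. Irf2bp1, the remaining relative, averaged 15.4 ± 0.18 FPKM in APP/PS1 and 15.3 ± 0.24 FPKM in WT (SD, n = 3 each) and overlapped. H2-Ke6, which RefSeq also lists as Hsd17b8, a steroid and fatty acid dehydrogenase gene in the MHC, had 5.58, 5.33 and 5.87 FPKM against 5.14, 5.76 and 6.62 FPKM.

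None of the Ifit genes passed the adjusted threshold. Ifit3, an RNA-binding antiviral protein, had 3.39, 2.32 and 1.46 FPKM in the libraries labelled APP/PS1, against 2.68, 2.24 and 2.86 FPKM in those labelled WT. Its log2 fold change was -0.12 (SE 0.20, adjusted p = 0.951) and turned to 0.09 without the library labelled APP/PS1 replicate 3. Ifit3b, a near-identical copy with which reads may be shared, had 1.45, 1.25 and 1.07 FPKM against 1.44, 0.751 and 1.55 FPKM, and Ifit2 had 2.12, 1.51 and 1.97 FPKM against 1.87, 2.0 and 1.89 FPKM. Ifit1bl1 had 1.31, 1.27 and 1.05 FPKM against 0.986, 1.01 and 1.11 FPKM, a log2 fold change of 0.12. For Ifit3 both the highest and the lowest library were labelled APP/PS1.

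Ifitm1, Ifitm2 and Ifitm3 block the entry of viruses at membranes. Ifitm3 had 8.79, 7.07 and 5.51 FPKM in the libraries labelled APP/PS1, against 6.69, 5.44 and 8.11 FPKM in those labelled WT. Ifitm2 had 8.89, 11.5 and 7.30 FPKM against 9.66, 9.97 and 10.7 FPKM. Like Cd74 and Ifi30, it was lowest in replicates 1 and 3 labelled APP/PS1, an order whose share over all genes was not counted. Ifitm1 was low, with 0.709, 1.00 and 0.781 FPKM against 1.27, 0.811 and 1.26 FPKM (log2 fold change -0.20, and -0.31 without WT replicate 2). Ifitm10 had 1.79, 1.72 and 1.81 FPKM against 1.58, 2.06 and 1.66 FPKM. The 4 Ifitm genes overlapped between the labels.

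Guanylate-binding proteins coat vacuoles that hold microbes and are induced by interferon gamma. Gbp2 had 0.955, 0.754 and 1.15 FPKM in the libraries labelled APP/PS1, against 1.05, 1.04 and 1.52 FPKM in those labelled WT, a log2 fold change of -0.17 (SE 0.12, adjusted p = 0.873) that was 0.0035 in the 4 libraries, -0.10 without APP/PS1 replicate 2 and -0.07 without WT replicate 3. Gbp7 had 1.24, 0.736 and 1.13 FPKM against 0.715, 0.905 and 1.27 FPKM, with a log2 fold change of 0.05 that turned to -0.04 without the library labelled WT replicate 1. Neither separated the labels. Gbp3, Gbp9 and Gbp2b were under the filter, and of these Gbp9 had 0.610, 0.486 and 0.626 FPKM against 0.760, 0.790 and 0.758 FPKM. Genes of this family are similar in sequence, so reads may be split between them.

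Ifi27 was the gene wholly higher in APP/PS1. Ifi27, a mitochondrial and nuclear envelope protein induced by type I interferon, had 11.6, 10.3 and 10.2 FPKM in the libraries labelled APP/PS1, against 9.66, 9.59 and 9.60 FPKM in those labelled WT (log2 fold change 0.14, SE 0.06, limma adjusted p = 0.765). Its fold change was 0.08 without the library labelled APP/PS1 replicate 1. Bst2, tetherin, which holds budding viruses at the cell surface, had 2.74, 2.53 and 2.45 FPKM against 2.70, 2.10 and 2.54 FPKM. Its log2 fold change of 0.06 (adjusted p = 0.948) turned to -0.02 without the library labelled WT replicate 2, and its libraries overlapped. Isg15, a ubiquitin-like modifier under the filter, had 1.02, 0.423 and 0.497 FPKM against 0.546, 0.373 and 0.507 FPKM, and Ifi27l2a, also under it, had 1.58, 0.462 and 0.374 FPKM against 0.873, 0.670 and 1.16 FPKM. For Isg15, Ifi27l2a, Ifit3 and Ifitm3 the highest library was labelled APP/PS1 replicate 1. For Ifit1, Ifit3b, Gbp2 and Ifi35 it was labelled WT replicate 3. Of the 40 tested genes, 9 were highest in APP/PS1 replicate 1 (22.5%, all genes 16.3%) and 14 in WT replicate 3 (35.0%, all genes 22.6%). Ifi35 had 1.39, 1.39 and 0.990 FPKM against 1.02, 1.06 and 1.83 FPKM.

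The ISRE is a sequence that many of these effectors share. Stretches around it are shown for the class I genes that hold it, for effectors of several families and for Stat2, a part of the ISRE factor itself. They are RefSeq sequence on GRCm38.p6, 5′ to 3′ on the strand of the gene, and capitals mark the ISRE core, GAAA and GAAA set 2 bases apart, on either strand, overlapping copies running together.
B2m, chr2:122147528-122147577, plus strand: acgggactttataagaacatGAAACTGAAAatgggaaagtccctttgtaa
H2-T22, chr17:36042904-36042953, minus strand: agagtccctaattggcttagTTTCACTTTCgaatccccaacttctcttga
H2-T23, chr17:36032796-36032845, minus strand: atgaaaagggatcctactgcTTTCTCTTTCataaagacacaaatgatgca
Bst2, chr8:71537570-71537619, minus strand: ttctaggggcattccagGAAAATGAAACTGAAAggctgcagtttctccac
Isg15, chr4:156200861-156200910, minus strand: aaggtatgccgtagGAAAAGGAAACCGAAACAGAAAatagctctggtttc
Ifit3, chr19:34583368-34583421, plus strand: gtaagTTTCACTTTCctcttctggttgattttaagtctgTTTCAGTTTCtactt
Ifit3b, chr19:34607764-34607817, plus strand: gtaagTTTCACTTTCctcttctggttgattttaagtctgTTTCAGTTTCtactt
Ifit1, chr19:34640774-34640823, plus strand: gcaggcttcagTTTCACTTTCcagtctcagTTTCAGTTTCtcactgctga
Gbp2, chr3:142620584-142620633, plus strand: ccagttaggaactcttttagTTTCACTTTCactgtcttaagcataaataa
Stat2, chr10:128270256-128270305, plus strand: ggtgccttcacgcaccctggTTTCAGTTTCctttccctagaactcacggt
The ISRE core was found in 19 of the 45 genes with a promoter in the table (42.2%) and in 1079 of 27025 genes in all (3.99%). It was found in 4 of 4 Gbp genes, 6 of 9 Ifit and Ifitm genes, 3 of 7 class I genes (B2m, H2-T22 and H2-T23) and 0 of 3 class II genes. Isg15 holds several overlapping copies, Ifit1 and Ifit3 hold a pair set apart, and the 54 bases shown for Ifit3 and Ifit3b are the same letters. Aligned with a shift of 32 bases, the promoters of Ifit3 and Ifit3b matched at 201 of 268 positions (75.0%). The GAS core TTCNNNGAA, bound by STAT dimers, was found in 10 of 45 (22.2%) and in 9.55% of all genes.

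**Figure D5:**
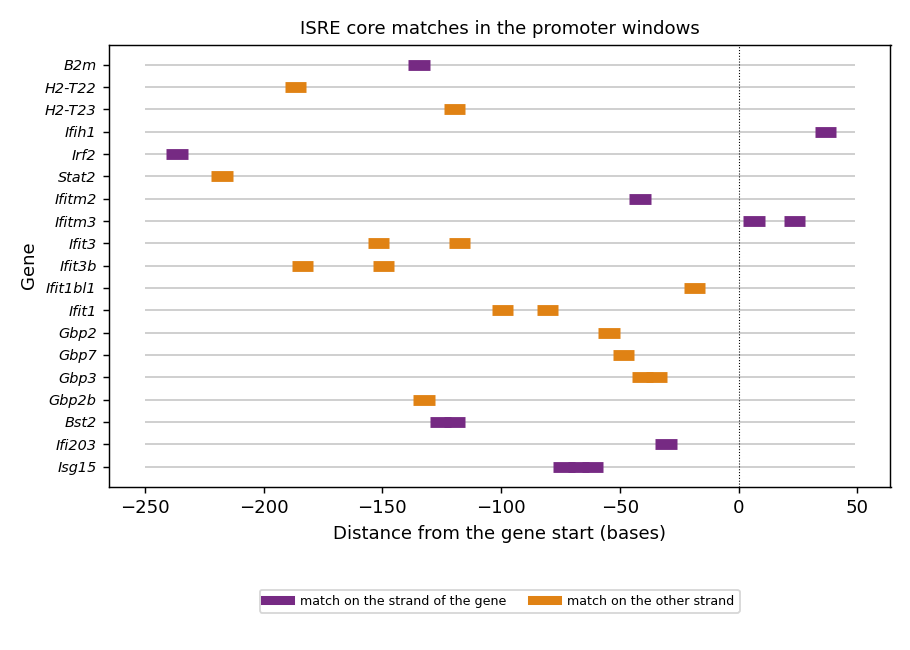
Each line is the first RefSeq promoter window of a gene with an ISRE core, on an axis of bases from the gene's start, and thick marks are the matches, purple on the strand of the gene and orange on the other strand. Most matches lie before the start, those of Ifih1 and Ifitm3 lie after it, and Ifit3 and Ifit3b show pairs the same distance apart.

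Fold changes were set beside the presence of the core. Of the 13 tested genes with an ISRE core, 8 fold changes were positive and 5 negative with a median of 0.05. Of the 22 tested genes whose promoter lacked it, 7 were positive and 15 negative with a median of -0.03. The range was -0.17 to 0.26 with the core and -0.29 to 1.19 without it, and the difference was not tested.

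Other genes of the interferon and antigen presentation pathways, 127 in 5 lists, had 88 in the table and 66 tested. Of these 0 passed the adjusted threshold, and 1 had a positive and 1 a negative fold change at an unadjusted p under 0.05 (1.52% each, beside 2.85% and 3.83% of all genes tested). Lgals3bp, a secreted galectin-binding protein, had 8.16, 5.09 and 4.20 FPKM in the libraries labelled APP/PS1, against 2.85, 3.01 and 3.27 FPKM in those labelled WT. Trex1, the nuclease that clears cytosolic DNA, had 1.02, 0.62 and 1.01 FPKM against 1.20, 1.46 and 1.16 FPKM. The labels did not overlap in either gene, nor in 6 more of the 66. In all, 5 of the 66 were wholly higher in APP/PS1 (all genes 5.38%) and 3 wholly lower (all genes 6.51%). Receptors and kinases (11 tested, 7 positive, median 0.01), nucleic acid sensors (15 tested, 7 positive, median -0.0046), immunoproteasome and loading chaperones (10 tested, 5 positive, median 0.01), class II regulators and processing genes (12 tested, 9 positive, median 0.05) and further interferon-stimulated genes (18 tested, 10 positive, median 0.02) stood close to the median of all genes. In the 4 libraries 1 of the further interferon-stimulated genes passed the adjusted threshold as lower, Ly6a, which is also an endothelial marker. Of all genes tested there, 0.105% passed as lower. In the 6 libraries Ly6a overlapped, with 1.66, 5.02 and 1.55 FPKM in APP/PS1 against 4.08, 4.18 and 3.68 FPKM in WT (limma adjusted p = 0.86). The 4 libraries leave out APP/PS1 replicate 2, its highest at 5.02 FPKM.

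The spread over libraries was wider than in all genes tested, but 28 of the 53 genes averaged under 2 FPKM and level was not matched. The ratio of the highest to the lowest library had a median of 1.47 over the 40 tested genes and 1.27 over all genes tested. It exceeded 4 in H2-D1 (7.40) and H2-K1 (4.51), in H2-Ab1 (5.74) and Ifi27l2a (4.22) under the filter, and in 1.13% of all genes tested. The library labelled WT replicate 3 was the highest for 14 of 40 (35.0%, all genes 22.6%) and the lowest for 1 (2.5%, all genes 16.8%). That labelled APP/PS1 replicate 1 was the highest for 9 (22.5%, all genes 16.3%) and the lowest for 7 (17.5%, all genes 16.5%). The library labelled WT replicate 2 was the lowest for 12 (30.0%, all genes 18.2%), and that labelled APP/PS1 replicate 3 for 11 (27.5%, all genes 18.5%). The labels thus held both the libraries that were often high and those that were often low.

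Cell type markers were summed beside these genes. The 12 microglial markers summed to 92.3 to 102 FPKM in APP/PS1 and 91.3 to 100 FPKM in WT, and 8 endothelial markers to 37.0 to 45.5 FPKM and 39.0 to 40.8 FPKM. None of the 9 lymphocyte markers had a row in the tables, and 2 of 6 dendritic cell markers did, at 3.01 to 3.26 FPKM and 2.82 to 3.39 FPKM. The 8 hippocampal neuron markers summed to 421 to 435 FPKM in APP/PS1 and 460 to 462 FPKM in WT, all 8 fold changes being negative. The 7 choroid plexus markers summed to 1124 to 1402 FPKM and 866 to 1213 FPKM, all 7 being positive. Their median log2 fold changes were -0.10 and 0.25, and -0.12 and 0.11 in the 4 libraries. At an unadjusted limma p under 0.05, 2 choroid plexus, 1 endothelial and 1 microglial marker were higher (all genes 2.85%). At the same limit 1 neuron and 1 microglial marker were lower (all genes 3.83%). Ttr made up most of the choroid plexus sum. The 3 red cell markers with a row summed to 245 to 432 FPKM and 209 to 331 FPKM, all 3 fold changes being positive, and mitochondrially encoded genes took 9.70% to 11.3% of FPKM in APP/PS1 and 8.87% to 9.31% in WT. Their part in the values above was not tested.

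The circRNA tables held 2246 circles, of which 257 came with coordinates. Of these, 0 overlapped one of the 53 genes in the RefSeq annotation.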

How the data were processed

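RNA of 6 hippocampus libraries was analysed, 3 labelled APP/PS1 and 3 labelled WT. Per the labels' protocols, tissue was frozen on removal, extracted with Trizol and built into libraries with a TruSeq kit. The gene values deposited by the authors were read as FPKM, from their decimals, their totals and the listing of StringTie with FastQC, HISAT2 and the build mm9 in the submitters' processing notes, since no header names a unit. The authors deposited circRNA counts of reads as whole numbers, made with a caller not given in the sources used here, and they served only to place circles on the genes.

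The genes, role groups and lists were chosen with earlier results of these data known. Rows that reached 1 FPKM in 3 or more libraries (13700) entered limma 3.58.1 in R 4.3.3 on log2(FPKM + 1), with trend and robust settings and the label as the only term, with Benjamini-Hochberg adjustment over all of them at a threshold of 0.05. The fit was checked on simulated data. By rule, the text names H2-D1, Ifit3, Gbp2 and Bst2, up to 6 genes of each role by mean FPKM and up to 4 by p, any gene with an unadjusted p under 0.05 or without overlap between the labels, and up to 3 genes of each further list; not all are printed, 1 gene of the rule is not reported by name or value here but counts in the totals, and Ifit1, Isg15, H2-M3, Rps18, Ddx39b and the genes that share the order of H2-D1 were added after their values were seen. No pair of libraries was a duplicate: Pearson's r across genes was 0.980 to 0.986, and at most 2 values were identical. Promoters were matched by symbol to the RefSeq table for GRCm38.p6, which held 45 of the 53 genes. The ISRE and GAS cores were planned, and the NF-κB motif and the shortened ISRE were searched in addition. Alternatives were other filters, a pseudocount of 0.1, TMM factors from edgeR 4.0.16, quantile scaling, limma without trend, array weights, a replicate block, a threshold of 0.1, each library left out, and the 4 libraries whose App and Prnp follow their labels.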

Additional observations from a re-analysis of the deposited data

How the results depend on the processing

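The number of interferon response and MHC genes past the adjusted threshold was 0 in each direction under each alternative, a threshold of 0.1 included, and the lowest adjusted p of any of the 22 genes followed under the alternatives was 0.13, for H2-D1 without the library labelled WT replicate 1. At an unadjusted p under 0.05 the number with a positive fold change was 1, and it was 2 with at least 1 FPKM required in all 6 libraries, with quantile normalization, with array weights and with the replicate number as a block, and 0 in the 4 libraries. Leaving out 1 library gave 0 to 3: 3 without the library labelled WT replicate 1, and 0 without APP/PS1 replicate 1 or 3 or WT replicate 2 or 3. The number with a negative fold change was 3, and 2 to 7 with 1 library left out, the 7 without the library labelled APP/PS1 replicate 2. The replicate block left it at 3. Same-numbered libraries deviated from their label means with correlations of 0.01, -0.06 and -0.09 across genes. The unmatched APP/PS1 replicate 3 and WT replicate 2 gave 0.10, so such values cannot decide whether same-numbered libraries were paired. The block moved the SE of single genes both ways, as in H2-K1 (0.187 with it, 0.345 without) and Stat3 (0.075 with it, 0.065 without). The median log2 fold change was -0.0178, from -0.0549 to 0.0219 with 1 library left out and 0.0122 in the 4 libraries. Of 308 values of the 22 followed genes under alternatives, 303 kept their direction, and 5 of the 22 had 1 reversed log2 fold change each. The other tested genes were not followed in this way. Several of them with small fold changes also changed sign in the 4 libraries, such as H2-DMa (-0.017 to 0.040) and Stat5b (0.040 to -0.039). Gbp2 had 0.0035 in the 4 libraries. With 1 library left out, Bst2 ran from -0.0197 (without WT replicate 2) to 0.109, Gbp7 from -0.0381 (without WT replicate 1) to 0.165, Ifit3 from -0.324 to 0.092 (without APP/PS1 replicate 3) and Tapbp from -0.00825 (without WT replicate 2) to 0.119. The cause was not tested. H2-T24 and other genes near 1 FPKM left the stricter filter and some fits with fewer libraries, which gave no value there. The depth behind FPKM is unknown, so genes near 1 FPKM have no counting error here.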
